A study of Mus musculus with 8 samples.

Results

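Delayed activity-induced genes are effectors, secreted factors and regulators that neurons transcribe later, or for longer, than the immediate early genes after a period of firing. The 10 genes described here were Nptx2, Vgf, Inhba, Pcsk1, Scg2, Ptgs2, Gadd45b, Nr4a2, Nr4a3 and Sik1, taken by gene symbol from the table of 29442 genes. All 10 were present, with raw counts between 285 (Gadd45b, DHEA replicate 7) and 8566 (Scg2, DHEA replicate 3). RNA sequencing was performed on polyadenylated RNA of the hippocampus, its ventral portion by the study's methods, from female C57BL/6 J mice aged 6 to 8 weeks. The study asked which hippocampal genes differ after chronic treatment with dehydroepiandrosterone (DHEA), an androgen precursor made in the adrenal gland. The DHEA group had 4 libraries from mice given 30 mg/kg/day by subcutaneous injection for 21 days, and the control group had 4 libraries from mice given the vehicle, Sesame Oil, on the same schedule. Replicates are named by the mouse number in the labels, which are 3, 4, 7 and 11 for DHEA and 5, 9, 10 and 16 for Sesame Oil. No batch, cage or pairing is given in the labels, and the tissue was collected after the mice had gone through open field, forced swimming and tail suspension tests, which followed the last dose in both groups. The hours between the last test and dissection are not given in the sources used here. Between 35748416 and 38038361 counts fell on genes in the DHEA libraries and between 31483772 and 35418297 in the Sesame Oil libraries. DHEA replicates 3 and 4 stood apart from DHEA replicates 7 and 11, with a chi-square per degree of freedom of 32.4 to 57.1 between their counts, against 29.4 between replicates 3 and 4, 13.8 between replicates 7 and 11 and 7.93 to 14.8 within the Sesame Oil group. Results are therefore also given without replicates 3 and 4 where this changed a member's call or the number of genes called in a list. Groups are named by the deposited treatment labels, and the signs in the study's own table of differential genes run opposite to these labels, so every direction below holds for the libraries as labelled.

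Synaptic activity raises calcium in neurons, which activates the transcription factor CREB and a rapid set of immediate early transcription factors such as Fos and Egr1. These in turn act on genes transcribed later or for longer, whose products leave the cell as neuropeptides and synaptic organisers, modify lipids, or feed back on transcription. In the hippocampus such genes are known for their induction by seizures, learning and exercise, and VGF in particular has been studied in models of depression.

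CREB binds the cyclic AMP response element (CRE), with the letters TGACGTCA or the shorter TGACG. The 250 bases before the start site are shown for the 4 members whose promoters held either the full element or several copies of the shorter letters in front of the start. They are written 5′ to 3′ on the strand of the gene, with both kinds of match on either strand in capitals, and come from the RefSeq promoter table for GRCm38.p6.
Scg2 (GRCm38.p6, chr1:79440027-79440276, minus strand): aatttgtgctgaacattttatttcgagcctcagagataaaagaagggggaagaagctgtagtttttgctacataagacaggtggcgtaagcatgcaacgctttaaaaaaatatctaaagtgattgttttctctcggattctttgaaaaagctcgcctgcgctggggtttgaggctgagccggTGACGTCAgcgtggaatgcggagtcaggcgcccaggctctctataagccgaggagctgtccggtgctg
Pcsk1 (GRCm38.p6, chr13:75089607-75089856, plus strand): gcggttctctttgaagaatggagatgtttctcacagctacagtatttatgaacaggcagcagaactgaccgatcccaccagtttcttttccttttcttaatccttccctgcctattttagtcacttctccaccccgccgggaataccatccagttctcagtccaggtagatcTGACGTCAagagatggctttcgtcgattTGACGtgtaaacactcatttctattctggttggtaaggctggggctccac
Nr4a3 (GRCm38.p6, chr4:48045055-48045304, plus strand): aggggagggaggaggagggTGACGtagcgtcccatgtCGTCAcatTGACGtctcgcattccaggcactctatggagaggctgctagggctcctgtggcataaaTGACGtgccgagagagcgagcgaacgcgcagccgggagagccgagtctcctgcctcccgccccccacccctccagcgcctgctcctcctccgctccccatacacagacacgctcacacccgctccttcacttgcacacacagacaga
Nr4a2 (GRCm38.p6, chr2:57124004-57124253, minus strand): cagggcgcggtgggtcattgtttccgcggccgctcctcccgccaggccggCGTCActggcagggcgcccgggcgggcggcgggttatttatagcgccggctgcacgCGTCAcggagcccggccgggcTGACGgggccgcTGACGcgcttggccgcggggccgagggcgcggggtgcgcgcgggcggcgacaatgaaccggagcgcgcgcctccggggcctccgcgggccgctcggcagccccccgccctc
Of the 10 genes, 7 had an entry in that table, which holds 250 bases before and 50 after each start. Vgf, Nptx2 and Sik1 had none. The full element, TGACGTCA, was in 2 of the 7 windows, 68 bases before the start of Scg2 and 78 bases before that of Pcsk1, and in 1.79% of all 32851 promoters. The shorter TGACG, which the full element contains, was in 5 of the 7 (Nr4a2, Nr4a3, Pcsk1, Ptgs2 and Scg2) and in 20.8% of all promoters. Nr4a2 and Nr4a3 each held 4 copies of it. The AP-1 letters TGANTCA were in 0 of the 7 windows (7.81% of all promoters) and the NR4A response element AAAGGTCA also in 0 (1.51%). EGR letters, GCGNGGGCG, were in Gadd45b and Nr4a2 (5.55%), and TATAAA was in Gadd45b, Inhba and Nr4a2 (13.6%). Each search covered both strands, and a match is a description of the letters only.

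The levels of the members spanned a wide range. Per length, as the deposited FPKM, Scg2 was the highest at 77.3 ± 6.06 (SD, n = 8), followed by Vgf at 29.2 ± 5.24, Nr4a2 at 16.5 ± 2.93 and Nr4a3 at 12.7 ± 1.5. Gadd45b (7.53 ± 0.754), Nptx2 (7.5 ± 0.771), Ptgs2 (6.61 ± 0.730) and Pcsk1 (6.47 ± 1.31) lay close together in the middle. Sik1 stood at 3.13 ± 0.975 and Inhba was the lowest at 0.690 ± 0.0935 FPKM. The ranges of neighbouring genes overlapped between Nr4a2 and Nr4a3, Gadd45b and Nptx2, Nptx2 and Ptgs2, and Ptgs2 and Pcsk1. Compared within each library, Nr4a2 was above Nr4a3 in 7 of 8 and Nptx2 above Ptgs2 in 7. Ptgs2 was above Pcsk1 in 6 and Gadd45b above Nptx2 in 5. Every library placed Scg2 above Vgf, Vgf above Nr4a2, Nr4a3 above Gadd45b, Pcsk1 above Sik1 and Sik1 above Inhba. Among the 12780 genes whose mean count reached 100, the level of Scg2 was at percentile 95.3 and that of Inhba at percentile 2.85.

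**Figure D1:**
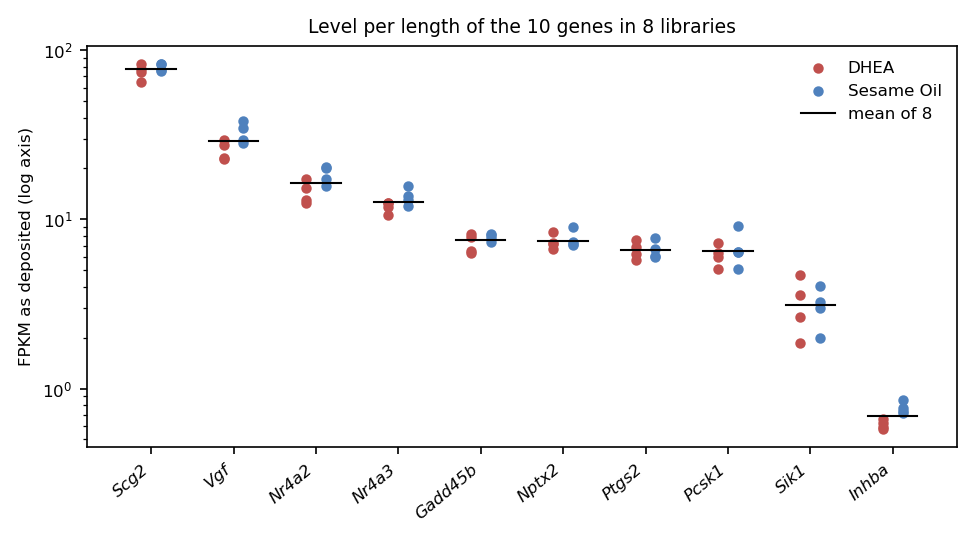
Level of each of the 10 genes in FPKM as deposited, on a log axis, with 1 point per library (red, DHEA; blue, Sesame Oil) and a bar at the mean of the 8 libraries. Scg2 lies at 77.3 FPKM and Inhba at 0.690, and the 4 genes from Gadd45b to Pcsk1 overlap.

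Between the groups, Vgf, Nr4a2, Inhba and Nr4a3 were lower in the DHEA group at an unadjusted p under 0.05 (edgeR's quasi-likelihood test), at 0.802 to 0.889 of the Sesame Oil level. These 4 of 10 compare with 9.31% of the 27612 genes tested at the same threshold in either direction. Among genes whose mean count reached 100, as all 10 members did, 7.6% were lower and 8.08% were higher at this threshold, and 0 members were higher. These shares are also the background for the counts of genes called in the lists below. The log2 fold change was below 0 for 8 members and above 0 for 2, with a median of -0.10, while the median over the 12780 genes was 0.01. Without Sesame Oil replicate 16 the members' median was -0.06, and without DHEA replicate 11 and Sesame Oil replicate 9 it was -0.17. After Benjamini-Hochberg adjustment of edgeR's test over all genes, 0 members and 0% of the 27612 genes had an adjusted p under 0.05, against 2571 genes at an unadjusted p under 0.05. The smallest adjusted p of any gene was 0.0569. With DESeq2, 3 members and 2267 of all genes had an unadjusted p under 0.05, and 0 members and 153 of all genes an adjusted p under 0.05. In edgeR, 0 members passed the thresholds of the study's methods, which add a fold change of 2 or more, or 0.5 or less, to the same unadjusted p. These were passed by 1.6% of the genes tested. The groups also differed in their relation to GC content, since the correlation across genes between GC content and a library's deviation from the mean was -0.081 to -0.0011 in the DHEA libraries and 0.04 to 0.10 in the Sesame Oil libraries. With this trend removed, 4 members were still lower and 0 higher at an unadjusted p under 0.05 in edgeR. Of all genes, 2359 passed in that fit, against 2571 without the removal. Since these are bulk tissue values, fewer cells of a type and less RNA per cell cannot be told apart.

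**Figure D2:**
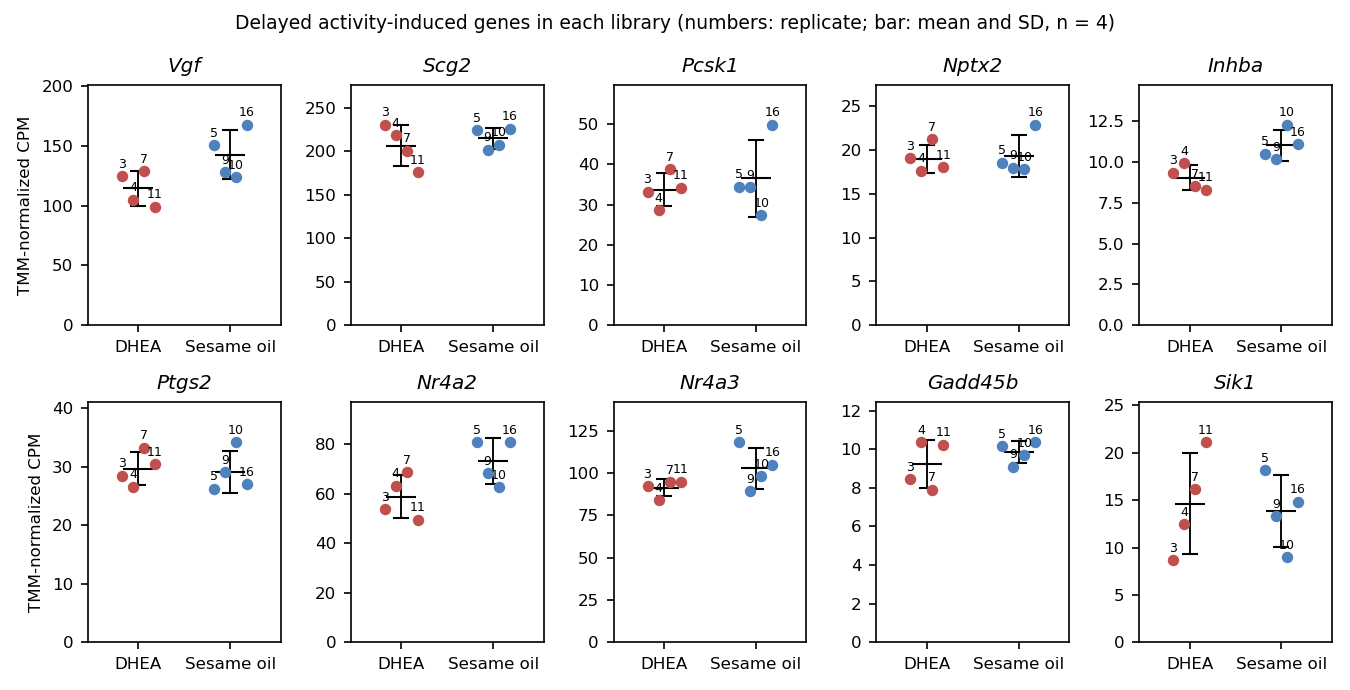
TMM-normalized CPM of each gene (vertical axes, starting at 0) in the 4 DHEA (red) and 4 Sesame Oil (blue) libraries, with replicate numbers beside the points and bars for the mean and SD. The groups are separate for Inhba, at 8.32 to 9.96 against 10.2 to 12.3 CPM, and overlap for the other 9 genes.

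The granins and the enzyme that cuts them come first. VGF is a secreted neuropeptide precursor. Vgf stood at 125, 105, 129 and 99.2 CPM (counts scaled to a common library total after TMM normalization) in DHEA replicates 3, 4, 7 and 11, and at 151, 128, 124 and 168 CPM in Sesame Oil replicates 5, 9, 10 and 16. The 2 lowest libraries were both DHEA and the 2 highest both Sesame Oil, while the other 4 lay between 124 and 129 CPM, so the groups overlapped. Its log2 fold change was -0.32 (SE 0.10, 95% interval -0.52 to -0.11, unadjusted p = 0.00415, adjusted p = 0.299 in edgeR), the smallest p among the members. A two-sided exact permutation test, with 70 ways to divide the libraries, gave p = 0.143, where the smallest p it allows is 0.0286.

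Scg2 encodes secretogranin II, the source of the peptide secretoneurin. It measured 231, 218, 201 and 176 CPM in DHEA replicates 3, 4, 7 and 11 and 224, 202, 207 and 226 CPM in Sesame Oil replicates 5, 9, 10 and 16. The DHEA libraries held both the highest and the lowest value, and spread about the Sesame Oil libraries on either side. Accordingly the log2 fold change was small, at -0.06 (95% interval -0.22 to 0.10, unadjusted p = 0.453 in edgeR). Without DHEA replicates 3 and 4 together, an alternative chosen after the data were seen, it was -0.20 with an unadjusted p of 0.0106 in edgeR.

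Pcsk1 encodes prohormone convertase 1, which cleaves granins and other prohormones in secretory granules. Its level was 33.2, 28.7, 38.9 and 34.2 CPM in the DHEA libraries and 34.5, 34.4, 27.4 and 49.9 CPM in the Sesame Oil libraries, in the same order of replicates. Sesame Oil replicate 16 stood above the rest and Sesame Oil replicate 10 was the lowest of all, so the vehicle group enclosed every DHEA library. The log2 fold change was -0.11 (95% interval -0.40 to 0.17, unadjusted p = 0.409 in edgeR), and without Sesame Oil replicate 16 it was 0.06.

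Of the 12 other genes for granins and prohormone processing, 2 were lower in the DHEA group at an unadjusted p under 0.05 in edgeR and 0 were higher. These were the granin gene Chgb (log2 fold change -0.16) and Ptprn, for a dense-core vesicle membrane protein (-0.19), each lower in every DHEA library than in every Sesame Oil library. Such a separation in this direction held for 4.23% of the 12780 genes whose mean count reached 100. The median log2 fold change of these 12 genes was -0.03. Of the 12, 4 were lower without DHEA replicates 3 and 4, with a median of -0.08. With 1 library left out, 2 or 3 were lower, and 1 was also higher without DHEA replicate 11 or after removal of each library's GC trend. Without DHEA replicate 11 and Sesame Oil replicate 9, 1 was lower and 1 higher.

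The secreted synaptic and growth factors were Nptx2 and Inhba. Nptx2 encodes a neuronal pentraxin that gathers AMPA receptors at excitatory synapses. It was present at 19.0, 17.6, 21.2 and 18.0 CPM in DHEA replicates 3, 4, 7 and 11 and at 18.5, 18.0, 17.8 and 22.9 CPM in Sesame Oil replicates 5, 9, 10 and 16. Apart from replicate 16, the Sesame Oil libraries lay within 17.8 to 18.5 CPM, inside the DHEA range. The log2 fold change was -0.02 (SE 0.10, 95% interval -0.24 to 0.19, unadjusted p = 0.818 in edgeR). Among 6 genes for its relatives and their AMPA receptor partners, Nptx1, another pentraxin, was lower (log2 fold change -0.14, unadjusted p = 0.0368 in edgeR), 0 were higher and the median was -0.05. Nptx1 no longer passed without Sesame Oil replicate 5 or 10.

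Inhba encodes the beta A subunit of activin and inhibin, and activin A made by neurons acts on synapses and cell survival. Its values were 9.37, 9.96, 8.52 and 8.32 CPM in the DHEA libraries and 10.5, 10.2, 12.3 and 11.1 CPM in the Sesame Oil libraries. This was the single member whose groups did not overlap, which was the case, in the same direction, for 4.23% of the same 12780 genes. The gap between the groups, from 9.96 to 10.2 CPM, was narrow. Its log2 fold change was -0.29 (SE 0.12, 95% interval -0.53 to -0.04, unadjusted p = 0.0238, adjusted p = 0.457 in edgeR), and the two-sided exact permutation test gave 0.0286, the smallest p it allows. Leaving out DHEA replicate 7, DHEA replicate 11 or Sesame Oil replicate 10 took the unadjusted p in edgeR above 0.05, to between 0.0527 and 0.0941. Of the 14 other genes for activin and inhibin signalling, 0 passed the unadjusted threshold in edgeR, and their median log2 fold change was -0.01. At that threshold 3 of the 14 were lower without DHEA replicate 11, alone or with Sesame Oil replicate 9, and 1 was lower without DHEA replicate 7 or in DESeq2. With limma-trend on log2(FPKM + 0.1) 2 were lower. With filterByExpr, thinning or limma-trend on log2(FPKM + 1) 1 was lower. The most abundant of them per length were the receptor gene Acvr1b (24.6 FPKM, log2 fold change -0.02) and Acvr2a (13.5 FPKM, 0.05). Inha and Inhbb, for other subunits of inhibin and activin, had log2 fold changes of -0.47 and -0.26 (unadjusted p = 0.0548 and 0.0662 in edgeR), with overlapping groups. Of the 14 log2 fold changes, 7 were below 0 and 7 above.

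Ptgs2 encodes cyclooxygenase-2, the inducible enzyme of prostaglandin synthesis, which in the forebrain is made by excitatory neurons. It stood at 28.5, 26.6, 33.3 and 30.4 CPM in the DHEA libraries and at 26.3, 29.1, 34.3 and 27.1 CPM in the Sesame Oil libraries. The extremes of all 8 libraries were both in the Sesame Oil group. Its log2 fold change was 0.03 (SE 0.10, 95% interval -0.18 to 0.23, unadjusted p = 0.790 in edgeR). Of 12 other genes for prostaglandin synthesis and receptors, 0 passed the unadjusted threshold in edgeR, and their median log2 fold change was 0.13. Without DHEA replicate 7, 4 of the 12 were higher at that threshold and the median was 0.23, and without DHEA replicate 11, 1 was higher and the median was 0.06. Without Sesame Oil replicate 5, 1 was higher as well. The most abundant were Ptgds (619 FPKM) and Ptges3 (50.3 FPKM), and Ptgds is also made in meninges and choroid plexus.

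The members that act inside the cell on transcription were Nr4a2, Nr4a3, Gadd45b and Sik1. Nr4a2 (Nurr1) and Nr4a3 (Nor1) encode orphan nuclear receptors that take part in memory formation in the hippocampus. Nr4a2 measured 53.7, 63.3, 68.7 and 49.5 CPM in DHEA replicates 3, 4, 7 and 11 and 80.8, 68.3, 62.6 and 80.9 CPM in Sesame Oil replicates 5, 9, 10 and 16. Replicates 5 and 16 of Sesame Oil lay above every other library, while DHEA replicates 4 and 7 were level with Sesame Oil replicates 9 and 10. The log2 fold change was -0.32 (SE 0.10, 95% interval -0.53 to -0.10, unadjusted p = 0.00580, adjusted p = 0.322 in edgeR), with a permutation p of 0.143 in the exact two-sided test.

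Nr4a3 was at 92.0, 84.1, 94.4 and 94.8 CPM in the DHEA libraries and at 118, 89.3, 98.1 and 105 CPM in the Sesame Oil libraries. The DHEA libraries differed little among themselves, and Sesame Oil replicate 9 lay inside their range. With a log2 fold change of -0.17 (SE 0.08, 95% interval -0.33 to -0.01), it passed the unadjusted threshold narrowly (p = 0.0439, adjusted p = 0.528 in edgeR, exact permutation p = 0.143). Without Sesame Oil replicate 5 the log2 fold change was -0.09 and the unadjusted p in edgeR 0.236, and it was also above 0.05, at 0.0558 to 0.0928, without DHEA replicate 3, DHEA replicate 4 or Sesame Oil replicate 16. Without DHEA replicates 3 and 4 together the log2 fold change was -0.12 and the unadjusted p in edgeR 0.182. The third gene of this receptor family, Nr4a1, was placed here in the list of immediate early genes, and its log2 fold change was -0.33 (SE 0.23, unadjusted p = 0.171 in edgeR). With its 3 retinoid X receptor partners Rxra, Rxrb and Rxrg, 0 of these 4 genes passed the unadjusted threshold in edgeR and all 4 log2 fold changes were below 0, with a median of -0.18. At that threshold 1 of the 4 was lower without DHEA replicate 7, without DHEA replicate 11 or without DHEA replicates 3 and 4 (median -0.09 in the last), and 2 were lower without DHEA replicate 11 and Sesame Oil replicate 9.

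Gadd45b encodes a stress-inducible protein linked to active DNA demethylation in neurons. Its 4 DHEA libraries ranged from 7.91 to 10.4 CPM and its 4 Sesame Oil libraries from 9.10 to 10.4 CPM. DHEA replicates 4 and 11 were level with the top of the Sesame Oil range, while replicates 3 and 7 were below all of it. The log2 fold change was -0.09 (SE 0.12, 95% interval -0.35 to 0.17, unadjusted p = 0.472 in edgeR). A list of 7 other genes covered the GADD45 family, the GADD45-interacting protein gene Gadd45gip1 and active demethylation. Of these, 0 had an unadjusted p under 0.05 in edgeR (1 was lower without DHEA replicate 7). Gadd45gip1 (9.95 FPKM) and Gadd45g (8.73 FPKM) were the most abundant.

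Sik1 encodes salt-inducible kinase 1, which restrains CREB by holding its CRTC coactivators in the cytoplasm. It was the most variable member, at 8.64, 12.5, 16.2 and 21.1 CPM in DHEA replicates 3, 4, 7 and 11 and 18.2, 13.3, 8.97 and 14.8 CPM in Sesame Oil replicates 5, 9, 10 and 16. Its within-group SD on the log2 scale, 0.47, was at percentile 97.8 of the 12780 genes, followed among the members by Pcsk1 at percentile 91.2. The DHEA group held both extremes. The log2 fold change was 0.08 (SE 0.22, 95% interval -0.38 to 0.54, unadjusted p = 0.717 in edgeR), and without DHEA replicate 11 it was -0.15. Of the 11 other genes for SIK kinases, CREB and CRTC, the kinase gene Sik3 (log2 fold change -0.16) and the CREB coactivator gene Crebbp (-0.19) were lower at an unadjusted p under 0.05 in edgeR, and 0 were higher. The count of lower genes was 1 without DHEA replicate 3, DHEA replicate 4, both of these, Sesame Oil replicate 5 or Sesame Oil replicate 10, and 3 without DHEA replicate 7 or 11.

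**Figure D3:**
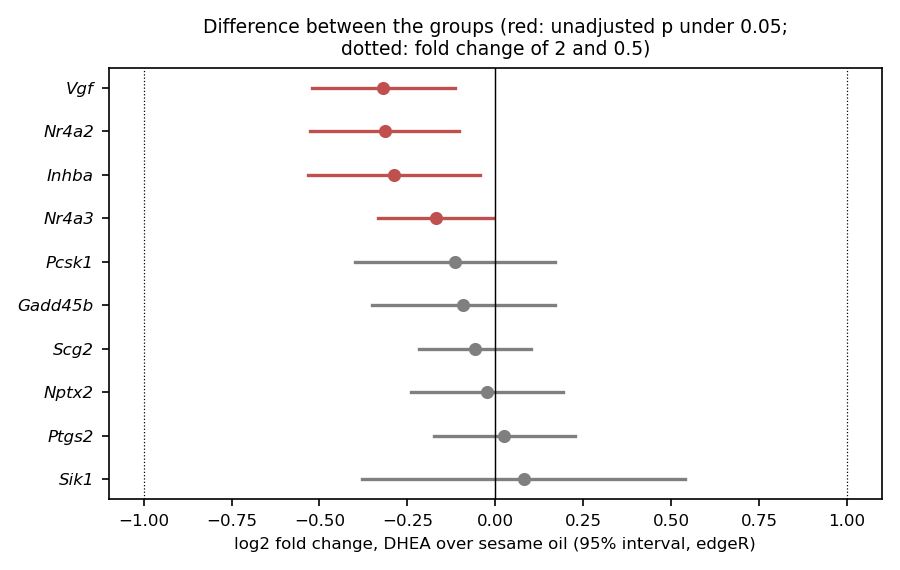
Log2 fold change of each gene, DHEA over Sesame Oil, with its 95% interval from edgeR (horizontal axis). Vgf, Nr4a2, Inhba and Nr4a3 (red, unadjusted p under 0.05) lie between -0.32 and -0.17 with intervals below 0, the other 6 intervals include 0, and all 10 lie well inside the dotted lines at a fold change of 2 and 0.5.

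The immediate early genes, a rapid part of the response to activity, were examined as a list of 20. The time course of induction was not measured here, so the list names give no order for single members. Of them 6 were lower in the DHEA group at an unadjusted p under 0.05 in edgeR and 0 were higher, with a median log2 fold change of -0.22. At this threshold 7.6% of the 12780 genes whose mean count reached 100 were lower and 8.08% higher, and 9.31% of all 27612 genes tested passed in either direction. The 6 were the transcription factor genes Egr1, Npas4, Fos, Egr2, Junb and Egr3. Egr1 was at 48.6 FPKM over the 8 libraries and had a log2 fold change of -0.50 (SE 0.15, unadjusted p = 0.00325 in edgeR). Npas4, for a neuronal factor induced by calcium entry, had a log2 fold change of -0.51 and Fos of -0.47. The adjusted p of all 20 was above 0.05 in edgeR. This count rested on single libraries and on the settings of the test. It was 1 with DESeq2 (median -0.23), 1 with edgeR's robust moderation (-0.22), and 2 in edgeR with at least 10 counts or filterByExpr (both -0.23), so there the calls and not the fold changes differed. It was 1 without DHEA replicate 3 (median -0.13), 3 without DHEA replicate 4 (-0.18) and 2 without Sesame Oil replicate 5 (-0.16) or 16 (-0.15). Without DHEA replicate 11 it was 13 (-0.37). Of all genes, 1938, 1983, 1786, 2051 and 3236 passed in these fits in that order, against 2571 with all 8 libraries. Without DHEA replicate 7, 8 were lower and 1 higher, and after removal of each library's GC trend 4 were lower and 1 higher. Without DHEA replicate 11 and Sesame Oil replicate 9, 12 were lower (median -0.40). Without DHEA replicates 3 and 4 together, 0 were lower, 1 was higher and the median was -0.04.

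Another 18 activity-induced genes of the later wave did not share a direction. Of these, 3 were higher at an unadjusted p under 0.05 in edgeR, which were the growth-promoting surface protein gene Nrn1 (log2 fold change 0.30), Tiparp (0.32) and the neurotrophin gene Bdnf (0.21). Dusp6, for a phosphatase that switches off ERK, was lower (log2 fold change -0.26, edgeR unadjusted p = 0.00409, adjusted p = 0.297). The median of the 18 was 0.03, with 10 genes above 0 and 8 below. Without DHEA replicates 3 and 4, 2 were lower and 4 higher (median 0.01), and without DHEA replicate 11, 2 were lower and 3 higher (median -0.03). Whether the lists differ from each other was not tested.

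**Figure D4:**
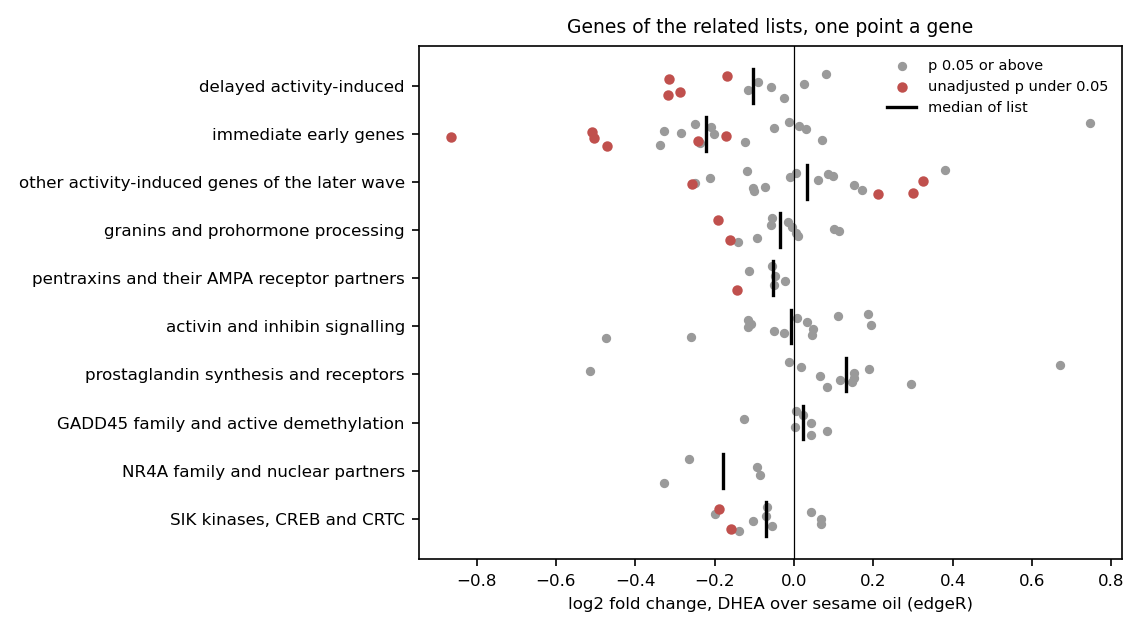
Log2 fold change, DHEA over Sesame Oil, of each gene in the 10 delayed activity-induced genes and in the 9 related lists (1 point per gene, red for an unadjusted p under 0.05 in edgeR, bar at the median). With all 8 libraries the immediate early genes have the lowest median, -0.22, and the other genes of the later wave lie on both sides of 0. Without Sesame Oil replicate 5 the NR4A list is lower (-0.19 against -0.16). Without DHEA replicates 3 and 4 the members are lower (-0.12 against -0.04).

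The members did not vary across the libraries as a unit. Of the 45 pairs, 3 had a Pearson correlation of log2(CPM + 0.5) above 0.7 over the 8 libraries, and the median was 0.26. Nptx2 and Pcsk1 were the closest pair (r = 0.90, and 0.91 after removal of the group means), both highest in Sesame Oil replicate 16. Vgf followed Nr4a2 (0.84, and 0.71 within groups) and Nr4a3 (0.70, and 0.52 within groups). At the other end Scg2 and Ptgs2 had r = -0.54 (-0.53 within groups), and Scg2 and Sik1 -0.51 (-0.52). After removal of the group means the median was 0.09 and the order changed, with Nptx2 and Vgf at 0.86, Vgf and Pcsk1 at 0.76, and Inhba and Sik1 at -0.75. These values describe 8 libraries, and each pooled value also holds any difference between the groups, whose library totals did not overlap.

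**Figure D5:**
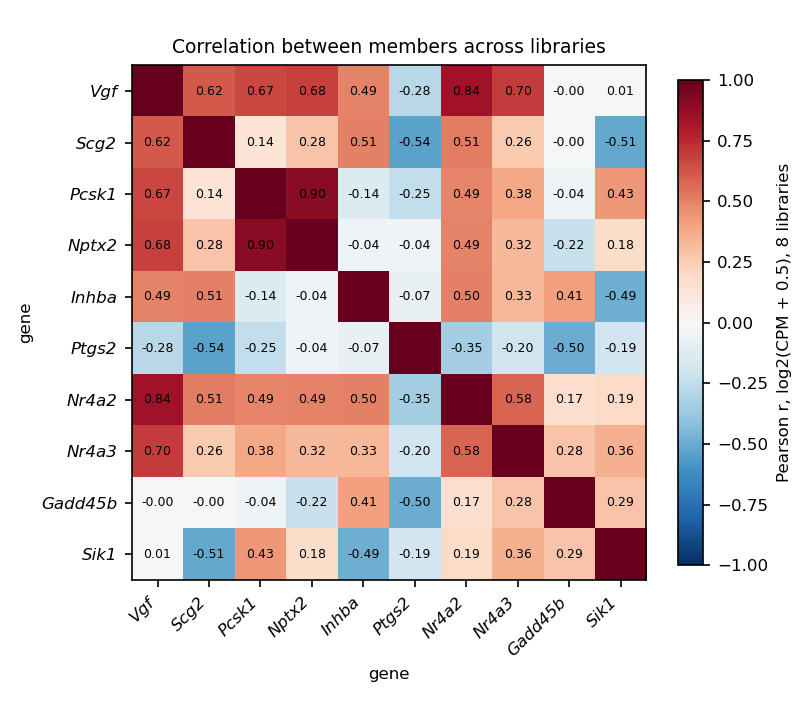
Pearson correlation between the 10 genes over the 8 libraries, with each value printed (both axes list the genes, colour from -1 in blue to 1 in red). Nptx2 with Pcsk1 (0.90), Vgf with Nr4a2 (0.84) and Vgf with Nr4a3 (0.70) are the highest, and Ptgs2 is below 0 with each of the other 9 genes.

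By library, Sesame Oil replicate 16 held the highest value of 5 members (Nptx2, Vgf, Pcsk1, Gadd45b and Nr4a2), and DHEA replicate 11 the lowest value of 4 (Vgf, Inhba, Scg2 and Nr4a2) together with the highest of Sik1. DHEA replicates 3 and 4 each had 8 of the 10 members in the lower 4 of the 8 libraries, and Sesame Oil replicates 5 and 16 each had 9 in the upper 4. The others were mixed, with 7 members of Sesame Oil replicate 10, 6 of DHEA replicate 11, 5 of Sesame Oil replicate 9 and 4 of DHEA replicate 7 in the lower 4. The genes whose pattern over the 8 libraries was most like a member, among the 12780 genes, had correlations of 0.89 to 0.99. Picked as the closest of so many over 8 libraries, these genes have high correlations in part through that choice. For Vgf they were Ssbp2 (r = 0.99), Chd5 and Cadm3, for Nr4a3 they were Pias2 (0.99), Irs2 and Mpp2, and for Nr4a2 Stoml1 (0.95), Pomt1 and Zhx2. For Inhba they were Leo1 (0.96), Mtres1 and Ptms. Pcsk1 went with Cux2 (0.97), Atp2b2 and Clstn1, Nptx2 with Klf5 (0.94), Kcnma1 and Btbd10, and Scg2 with Ckmt1 (0.97), Ahsa1 and Kctd8. Ptgs2 was closest to Grik2 (0.92), Adss and Ankdd1a, Gadd45b to Fam133b (0.96), Ankrd6 and Ssr4, and Sik1 to Zfp800 (0.94), Zfp658 and Naa80. Cux2, the closest gene to Pcsk1, marks upper-layer neurons of the neocortex. The summed CPM of 5 neocortical markers, which include Cux2 and of which Lamp5 was the most abundant per length, was highest in Sesame Oil replicate 16, at 207 against 119 to 166 in the other 7 libraries. Since Cux2 was picked for its likeness to Pcsk1, a peak of this sum in the same library follows in part from that choice. The part of the neocortical sum in the values of Pcsk1 and Nptx2 was not tested.

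The labelled tissue expressed its markers, with the neuronal genes Snap25 at 715 FPKM and Slc17a7 at 344 FPKM, and the subfield markers Wfs1 at 29.3 FPKM and Prox1, of dentate granule cells, at 15.2 FPKM. All 4 oligodendrocyte markers examined (Mbp, Mog, Mobp and Mag) were higher in the DHEA group at an unadjusted p under 0.05 in edgeR, against 8.08% of the genes whose mean count reached 100. Their summed levels were 3523, 4581, 3487 and 3940.3 CPM in DHEA replicates 3, 4, 7 and 11 and 2982, 3511, 2919 and 2466 CPM in Sesame Oil replicates 5, 9, 10 and 16. At that threshold 3 of the 4 were higher without Sesame Oil replicate 16, without DHEA replicates 3 and 4, with filterByExpr or with either limma-trend fit, and 2 of the 4 with robust moderation in edgeR. The sums overlapped in Sesame Oil replicate 9, and Mbp was the most abundant of them per length. Sesame Oil replicate 16, the highest library for 5 members, had the lowest oligodendrocyte sum. Of 5 astrocyte markers 3 were higher (Gfap, Slc1a2 and Slc1a3, of which Slc1a2 was the most abundant per length), with sums of 5475 ± 441 against 4829 ± 320 CPM (SD, n = 4 each). Among 4 microglial markers, of which Csf1r was the most abundant per length, P2ry12 was higher (sums of 205 ± 27.6 against 181 ± 10.7 CPM), and among 5 endothelial markers, of which Cldn5 was the most abundant per length, Pecam1 and Slco1a4 were higher (248 ± 18.9 against 224 ± 9.35 CPM). The microglial count was 0 without DHEA replicates 3 and 4, with robust moderation or with either limma-trend fit, and 2 without DHEA replicate 11 or Sesame Oil replicate 9. Without DHEA replicates 3 and 4 the endothelial list had 1 higher and 1 lower gene. Of 7 neuronal markers, Rbfox3 was lower, at 221 ± 5.65 against 247 ± 5.73 CPM (SD, n = 4 each) without overlap, and 0 were higher. Of the 12780 genes whose mean count reached 100, 4.23% were lower without overlap. The sums of the 7 neuronal markers overlapped between the groups (5458 ± 237 and 5560 ± 242 CPM). Without DHEA replicates 3 and 4, 2 neuronal markers were lower and 0 higher, and without DHEA replicate 11, 1 was lower and 2 were higher. Cpne4 and Bok were higher among the 7 subfield markers, but the count of higher genes was 0 with either limma-trend fit and without DHEA replicate 4, Sesame Oil replicate 5 or Sesame Oil replicate 16. Among the subfield markers 1 was higher and 1 lower without DHEA replicate 3, and 0 were higher and 2 lower without DHEA replicates 3 and 4 together. The astrocyte count was 1 without DHEA replicate 4, Sesame Oil replicate 5 or Sesame Oil replicate 10, and without DHEA replicates 3 and 4 together. It was also 1 after removal of the GC trend or with either limma-trend fit, and 4 without DHEA replicate 11. The part of these differences in the lower values of Vgf, Nr4a2, Inhba and Nr4a3 was not tested.

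Neighbouring tissues were also represented. The 5 choroid plexus markers, of which Ttr was the most abundant per length, summed to between 65.0 CPM in DHEA replicate 4 and 4196 CPM in DHEA replicate 3, and 0 of 5 differed at an unadjusted p under 0.05 in edgeR (median log2 fold change 0.43). Without DHEA replicate 4, all 5 were higher in the DHEA group at that threshold (median 0.82). Of 7 tested anterior pituitary markers, Gh, Prl and Pomc, which encode pituitary hormones or their precursor, had lower values in the DHEA group. In the DHEA libraries Gh was at 0 to 0.0821 CPM, near or below the level of 3 counts, and Prl at 0 to 0.219 CPM. Pomc overlapped between the groups, at 0.575 to 1.21 CPM in DHEA and 0.513 to 4.93 CPM in Sesame Oil. The list sums were 1.85 to 3.37 CPM against 3.53 to 30.3 CPM, with Prl the most abundant per length, and Fshb was listed at 0 in every library. The highest pituitary sum was that of Sesame Oil replicate 10, in which Vgf and Nr4a2 were the lowest of their group and Inhba and Ptgs2 the highest of all 8 libraries. Without it, 2 of 6 tested markers were lower. Thalamic markers summed to 116 to 149 CPM, with Calb2 the most abundant per length and Rora of 5 markers higher in the DHEA group. The call of Rora no longer held in DESeq2, with at least 10 counts, filterByExpr, either limma-trend fit or removal of the GC trend. It was also lost without DHEA replicate 11, alone or with Sesame Oil replicate 9, and when Sesame Oil replicate 5, 9 or 10 was left out. Without DHEA replicate 3 or 7, 2 thalamic markers were higher. Red blood cell markers (45.7 to 159 CPM) and leukocyte markers (3.77 to 12.3 CPM) had 0 genes past the threshold, with Hbb-bs and S100a9 the most abundant per length. At that threshold 1 leukocyte marker was higher without DHEA replicate 3, 4 or 7, without DHEA replicates 3 and 4 or without Sesame Oil replicate 10, and 1 red blood cell marker was higher without DHEA replicate 7. Mitochondrially encoded transcripts made up 7.29% to 9.34% of counts in the DHEA libraries and 6.37% to 7.23% in the Sesame Oil libraries. The part of any of these in the members' values was not tested.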

How the data were processed

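RNA-seq was analysed in 8 libraries, 4 labelled DHEA and 4 labelled Sesame Oil. The authors deposited raw counts per gene and FPKM values, for which the submitters' processing notes name fastp, HISAT2, HTSeq and GRCm39, with versions not given in the sources used here. The deposited FPKM equal the counts divided by the library total and 1 length per gene (25234 of 25234 genes within 0.1%), so they hold no further measurement. They were used here to compare levels between genes and in the limma alternatives.

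Counts were normalized by TMM and tested with edgeR 4.0.16 in R 4.3.3 (quasi-likelihood test, prior count 0.125) on the 27612 genes with at least 1 count over the 8 libraries, with Benjamini-Hochberg adjustment. A standard error is the size of the log2 fold change divided by the square root of F, and intervals are at 95%. Single values were compared by an exact permutation test. DESeq2 1.42.0 and limma 3.58.1 served as alternatives (limma-trend on log2 FPKM, with a pseudocount of 1 or 0.1), beside RLE normalization, at least 10 counts, filterByExpr, a prior count of 1, robust moderation, thinning to the smallest total, removal of each library's GC trend (lowess, span 0.3) and leaving out libraries, and the code was tested on simulated data. With totals of 31483772 to 38038361 counts, 3 counts equal 0.0789 to 0.0953 CPM, counting error only. Between libraries of a group, counts differed by more than sampling noise. P-values of edgeR rest on the spread between these libraries moderated over all genes, and not on a gene's own spread alone. With robust moderation the unadjusted p in edgeR was 0.0264 for Vgf, against 0.00415, and 0.0223 for Nr4a2, against 0.00580.

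The members and all lists were chosen with earlier results of these data known. The genes named were all 10 members, in each list the genes with an unadjusted p under 0.05 and otherwise the 2 most abundant by FPKM, and for each member the 3 genes most correlated with it. Genes named outside this rule, in the marker lists, among the NR4A partners and among the inhibin subunits, were chosen after their values were seen. GC content came from GENCODE vM21 transcripts and promoters from RefSeq (GRCm38.p6), and no coordinates of the count table were used. Some genes of the marker lists are not reported here and were left out of the counts and sums of their lists. Behaviour, recordings, PCR and protein data were not analysed here.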

Additional observations from a re-analysis of the deposited data

Results flagged for a closer look

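Nptx2 in Sesame Oil replicate 16, at 22.9 CPM, stood apart from the other 3 libraries of its group, which lay within 17.8 to 18.5 CPM. The gap to the nearest of them was 0.8564 of the group's range, above Dixon's critical value at the 95% level for 4 samples. It was the single such case among 24 groups of 4 libraries examined, where chance alone marks about 1 in 20.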

How the results depend on the processing

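Of the 20 alternatives, Vgf and Nr4a2 kept a log2 fold change below 0 with an unadjusted p under 0.05 in all 20, Inhba in 15 and Nr4a3 in 11. Their ranges were -0.38 to -0.24 for Vgf, -0.40 to -0.24 for Nr4a2, -0.40 to -0.13 for Inhba and -0.25 to -0.09 for Nr4a3. Without DHEA replicates 3 and 4 the members that passed were Vgf, Nr4a2, Inhba and Scg2, and Nr4a3 was at -0.12 (unadjusted p = 0.182 in edgeR). Of all genes, 2135 passed in that fit, against 2571 with all 8 libraries. The 4 members with an unadjusted p under 0.05 became 2 with limma-trend on log2(FPKM + 0.1), where 2605 of all genes passed against 2571 in edgeR, and 3 to 4 when 1 library was left out, where 1786 to 3667 of all genes passed. The adjusted p of every member stayed above 0.05 in every alternative, the lowest being 0.0630 for Nr4a2 and 0.0764 for Vgf without DHEA replicate 7. Of the 6 other members, Gadd45b stayed below 0 throughout, at -0.18 to -0.02, and the other 5 changed sign in some alternatives. Nptx2 was at 0.018 after removal of the GC trend, 0.0179 without DHEA replicates 3 and 4 (chosen after the data were seen), and -0.0821 to 0.06 when 1 library was left out. Ptgs2 was at -0.0454 after removal of the GC trend and -0.0334 to 0.113 with 1 library left out. Sik1 was at -0.1702 without DHEA replicate 11 and Sesame Oil replicate 9, which belong to a later run of accessions, -0.1529 to 0.2648 with 1 library left out, and 0.4284 (unadjusted p = 0.0541 in edgeR) without DHEA replicates 3 and 4. With 1 library left out, Pcsk1 ranged from -0.2312 to 0.0643 and Scg2 from -0.1158 to 0.0111. All of these had an unadjusted p above 0.05, and the cause was not tested. EGR letters were in 1 member promoter on the given strand alone. No paired analysis was made. The study's methods name littermates as controls, but no label says which of these mice were littermates. Gadd45b and Inhba, with the fewest counts of the 10 members, carry the largest counting error.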
